A study of Homo sapiens with 6 samples.

Results

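The SWI/SNF complexes are chromatin remodelling machines, and the 10 genes described here encode their core and defining subunits: SMARCA2, SMARCA4, SMARCB1, SMARCC1, SMARCC2, SMARCD1, ARID1A, ARID1B, ARID2 and PBRM1. They were chosen by gene symbol, matched to the Ensembl gene identifiers of the deposited tables, and make up 10 of the 60671 genes listed there. The libraries were made from KGN cells, a human granulosa cell line derived from an ovarian granulosa cell tumour. The cells used in both conditions had been edited so that they carry 2 wt copies of FOXL2, and the genotype is labelled FOXL2 WT/WT. Whether they are 1 clone is not given in the sources used here. FOXL2 encodes a forkhead transcription factor of granulosa cells. Transfection was with 30 pmol of a pool of FOXL2 siRNAs (3 libraries) or with the same amount of a scrambled control siRNA (3 libraries), and RNA was taken 30 h later. Each FOXL2 siRNA library came from its own pool of 3 siRNAs, drawn from 4 siRNAs of which 1 was in every pool. The pool and the library can therefore not be told apart, and no source used here says whether the libraries came from separate cultures on separate days. The p-values below measure only the spread between these 6 samples, which may be technical.

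SWI/SNF complexes use the energy of ATP hydrolysis to slide or evict nucleosomes and so open DNA to transcription factors. Each complex holds 1 of the alternative ATPases SMARCA2 (BRM) or SMARCA4 (BRG1) on a shared core, and is given its type by further subunits: ARID1A or ARID1B in the canonical BAF complex, ARID2 and PBRM1 in PBAF. Several of these genes are tumour suppressors, and SMARCA4 is lost in small cell carcinoma of the ovary, hypercalcaemic type.

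Library totals ranged from 23843192 to 28791954 expected counts, and 15663 genes were tested. FOXL2, the targeted gene, had CPM (read counts scaled to a common library size with TMM factors) of 9.88, 9.71 and 10.8 in the control libraries, against 2.63, 3.31 and 2.36 in the FOXL2 siRNA libraries. It fell by 1.88 on the log2 scale (SE 0.142, adjusted p = 0.00267, edgeR quasi-likelihood test with Benjamini-Hochberg adjustment), so that 27.3% of the control mean remained. In bulk RNA, less RNA per cell and fewer cells with the RNA cannot be told apart. Of 14 granulosa markers, 7 were tested (FOXL2, NR5A1, INHBA, INHBB, AMH, HSD17B1 and STAR). GATA4, INHA, AMHR2, CYP19A1 and CYP11A1 fell under the filter on low counts, and WT1 and FSHR were listed at 0 in all libraries. The summed level of the granulosa markers was 123 to 132 TPM (abundance per transcript length, scaled to a common total) in the control and 110 to 127 TPM in the FOXL2 siRNA libraries. This sum includes FOXL2 itself, the target of the siRNAs, so part of its fall follows from the KD. Of the 3 theca markers none was tested. The 3 surface epithelium markers summed to 60.7 to 67.5 TPM in the control and 61.8 to 71.2 TPM in the FOXL2 siRNA libraries, and KRT7 alone of them was tested. FOXL2 siRNA replicate 2 stood apart from the other libraries on the first principal component of log2 CPM (31.2% of the variance), with a score of 40.9, while the scores of the other libraries ran from -17.2 to -0.02.

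Sequences of 2 kinds bear on these genes. FOXL2 is a DNA-binding forkhead factor, and the study also asked whether it binds RNA with runs of G doublets. The first set shows the SMARCA2 starts, since SMARCA2 had the largest differences in level and in length among the subunits. The gene lies on chromosome 9 from 1980290 to 2193624, plus strand (GRCh38, GENCODE v29). RefSeq (GRCh38.p14) has 4 promoter windows for it, each from 250 bases before a start to 50 bases after it, and 2 of the 4 lie far inside the gene, with 143 kb between the first and the last. The first and the last are printed here up to 30 bases past the start, with the transcribed bases in capitals.
SMARCA2, upstream start, chr9:2015097-2015376, plus strand: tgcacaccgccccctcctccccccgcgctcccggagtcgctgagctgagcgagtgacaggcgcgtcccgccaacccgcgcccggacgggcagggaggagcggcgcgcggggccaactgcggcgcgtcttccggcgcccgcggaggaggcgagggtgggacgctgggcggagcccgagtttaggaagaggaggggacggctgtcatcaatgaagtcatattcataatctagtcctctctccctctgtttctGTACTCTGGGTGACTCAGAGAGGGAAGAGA
SMARCA2, internal start, chr9:2158214-2158493, plus strand: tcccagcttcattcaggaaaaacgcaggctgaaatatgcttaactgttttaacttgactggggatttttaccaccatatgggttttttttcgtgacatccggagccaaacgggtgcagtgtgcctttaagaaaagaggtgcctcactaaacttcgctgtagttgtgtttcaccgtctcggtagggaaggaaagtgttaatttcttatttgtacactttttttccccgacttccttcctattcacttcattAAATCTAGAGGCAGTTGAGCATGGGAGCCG

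The upstream window has a GC content of 66.7% and 30 CG dinucleotides, and the last internal window 43% and 9. Over all 35116 windows of the RefSeq table the medians were 58.7% and 14. Of the 66 SMARCA2 transcripts in GENCODE v29, 28 start in the region of the internal RefSeq starts. The 20 protein-coding ones among them are 616 to 2242 nt long, whereas the longest SMARCA2 transcript has 7061 nt.

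SMARCD1, whose estimated length differed in the other direction, is shown beside it with its only RefSeq window.
SMARCD1, chr12:50085092-50085371, plus strand: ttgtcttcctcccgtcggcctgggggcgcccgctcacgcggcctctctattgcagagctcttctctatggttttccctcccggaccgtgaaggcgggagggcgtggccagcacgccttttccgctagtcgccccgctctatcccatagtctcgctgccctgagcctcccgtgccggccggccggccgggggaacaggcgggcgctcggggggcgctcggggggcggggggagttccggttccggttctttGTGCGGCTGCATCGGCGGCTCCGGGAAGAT

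In all, 7 of the 10 genes matched 13 RefSeq windows, and SMARCC1, SMARCC2 and ARID2 did not match. The forkhead core GTAAACA, sought on both strands, was in 0 of the 13 windows and in 3.42% of all windows. The looser A-rich form AAACAAA was in 2 of the 13, one of ARID1B and one of SMARCB1, against 8.15% of all windows. A match or its lack is a description of these letters in these windows only.

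The second set shows the G2-rich motif, defined here as 8 G doublets (GG) with gaps of 1 to 4 bases, on the transcribed strand of the longest GENCODE v29 transcript. Of the 10 subunit genes 5 held it: SMARCA2 and SMARCA4 with 1 match each, SMARCC2 with 2, ARID1A with 4 and ARID1B with 9. The share of all tested genes with a transcript in that release that held it was 19.3%. Among tested genes whose longest transcript fell within the subunits' own range of 3658 to 10813 nt it was 25.1%. Of 21 further SWI/SNF subunits, 8 (38.1%) held the motif. The matches below stand for the coding and the untranslated kind, with the G doublets in capitals and the coordinates in GRCh38.
SMARCA4, coding, chr19:10986518-10986561, plus strand: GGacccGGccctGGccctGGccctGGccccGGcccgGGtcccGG
ARID1A, coding, chr1:26696644-26696669, plus strand: GGgGGtGGcGGcGGcGGcGGagccGG
ARID1B, coding, chr6:156778893-156778918, plus strand: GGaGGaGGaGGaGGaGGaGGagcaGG
SMARCC2, 5′ UTR, chr12:56189538-56189565, minus strand: GGccgcGGcGGcGGgaGGcGGcGGgaGG

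All 9 ARID1B matches were coding, 3 of the 4 in ARID1A were coding, and both SMARCC2 matches were in the 5′ UTR, as was the SMARCA2 match. Shorter transcripts were not searched, and at least 28 of the 66 SMARCA2 transcripts start downstream of the SMARCA2 match. The members with the motif had log2 fold changes of -0.19 (SMARCA2), -0.10 (SMARCA4), -0.09 (SMARCC2), -0.09 (ARID1A) and -0.06 (ARID1B). The members without it lay between -0.02 and 0.12. None of these 10 changes, from edgeR on the counts, passed the test over all genes. The split was seen after the values were known, so it is given as a description only. It did not hold once the lengths that RSEM estimates (below) entered the edgeR or DESeq2 fit. There ARID1A and ARID1B turned positive, and SMARCB1, without the motif, was the lowest after SMARCA2.

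All 10 subunits were expressed and tested, with counts from 666 in a library for ARID2 to 6264 for SMARCA4. Per length, the control means ran from SMARCA4 at 81.2 ± 2.38 TPM (SD, n = 3) to ARID2 at 6.09 ± 0.142 TPM. Between them came SMARCB1 (78.6 TPM), SMARCC2 (70.6 TPM), SMARCA2 (55.3 TPM), SMARCD1 (45.5 TPM), PBRM1 (37.4 TPM), SMARCC1 (35.8 TPM), ARID1A (25.0 TPM) and ARID1B (22.1 TPM). The ranges of SMARCA4 and SMARCB1 overlapped, as did those of PBRM1 and SMARCC1, and all other neighbours in this order were apart in the 3 control libraries. SMARCA4 stood above 87.3% of the tested genes and ARID2 above 36.5%.

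After the FOXL2 KD, edgeR called 0 of the 10 subunits (adjusted p below 0.05), where 0.255% of all tested genes were called. At an unadjusted p below 0.05 SMARCA2 alone passed, against 13.5% of all genes. DESeq2 on the same counts also called 0 of the 10, with 3.0% of its tested genes called and with SMARCA2 alone below an unadjusted p of 0.05. The log2 fold changes ran from -0.19 to 0.12 with a median of -0.04, and 6 were negative and 4 positive. Over all tested genes the median was 0.01. The median absolute log2 fold change was 0.09 for the subunits and 0.12 for all genes. The groups did not overlap in CPM for 1 of the 10 subunits, and for 20.5% of all tested genes.

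**Figure D1:**
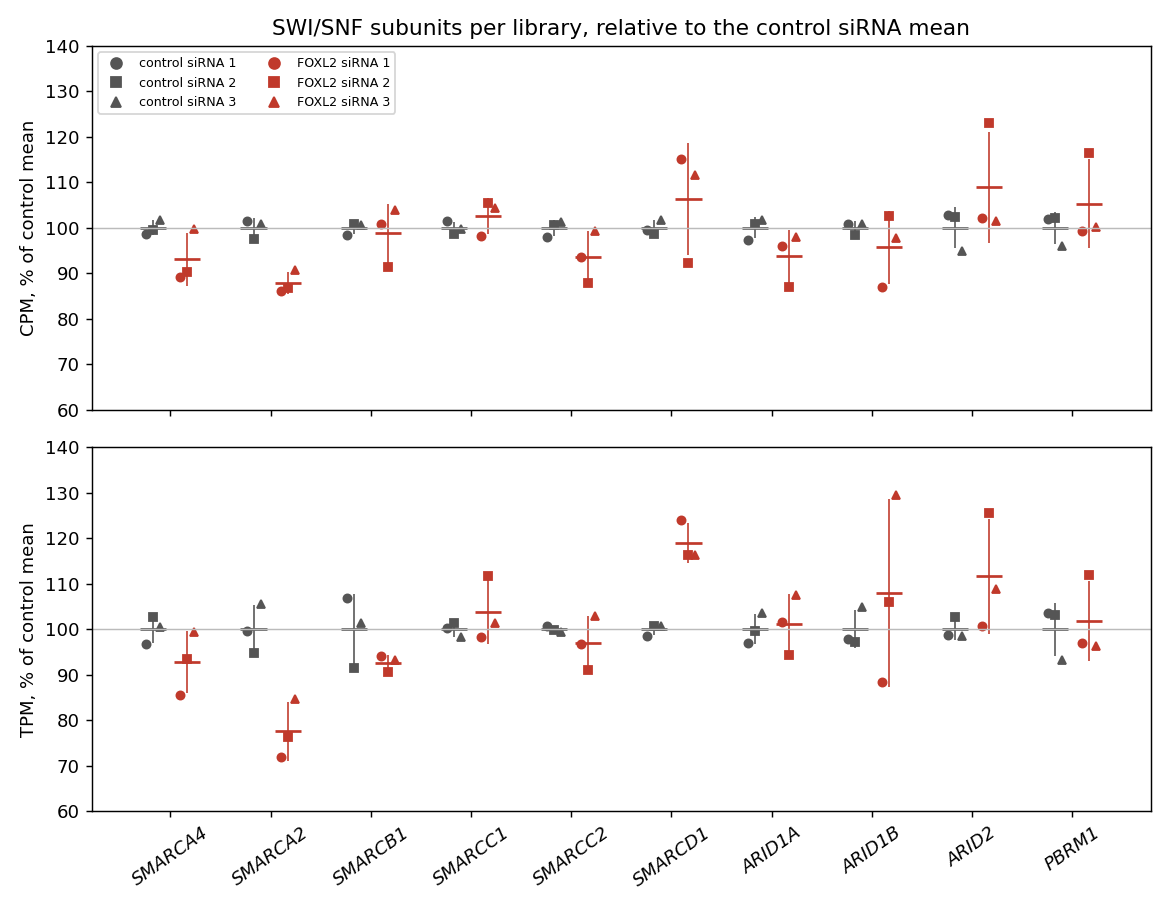
CPM (upper panel) and TPM (lower panel) of each SWI/SNF subunit in the 6 libraries, as a percentage of the mean of the 3 control siRNA libraries; points are libraries, horizontal bars means and vertical bars ± 1 SD (n = 3 per condition), and the vertical axes start at 60%. SMARCA2 is the only subunit whose FOXL2 siRNA libraries all lie below the control libraries in both panels, and SMARCD1 lies above them in TPM but not in CPM.

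The ATPases are the motor subunits. SMARCA2 had CPM of 84.3, 80.9 and 83.7 in the control libraries and of 71.5, 72.0 and 75.3 in the FOXL2 siRNA libraries. Every FOXL2 siRNA library was below every control library. The log2 fold change was -0.19 (SE 0.0588, 95% interval -0.32 to -0.05), a mean of 87.9% of the control, and it missed the threshold over all genes (edgeR adjusted p = 0.237; exact permutation p = 0.1, two-sided, the smallest that 3 against 3 libraries can give). A larger absolute change was found in 33.7% of the tested genes.

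In TPM the SMARCA2 difference was larger. The levels were 55.1, 52.5 and 58.4 TPM in the control libraries and 39.8, 42.2 and 46.8 TPM in the FOXL2 siRNA libraries, so that 77.6% of the control mean remained, and the groups again did not overlap. SMARCA2 and SMARCD1, 2 of the 10 subunits, had no overlap in TPM, as did 18.4% of all tested genes, with 9.07% lower and 9.3% higher. limma on log2(TPM + 1) gave a log2 difference of -0.36 with an adjusted p of 0.175, and called 0 of the 10 subunits and 0.0911% of all genes.

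The gap between both units comes from the effective length that RSEM estimates in each library and by which it divides the counts. This effective length is the abundance-weighted transcript length less an allowance for fragment size. For SMARCA2 it was 2269, 2298 and 2080 nt in the control libraries and 2630, 2690 and 2385 nt in the FOXL2 siRNA libraries. The longest control estimate was below the shortest after the KD (exact permutation p = 0.1, the smallest possible). The means were 2216 and 2568 nt, the latter 116% of the control, and 9.74% of the tested genes had a larger relative change. When these lengths entered the count model as offsets, DESeq2 gave SMARCA2 a log2 fold change of -0.37 (SE 0.0927, adjusted p = 0.0048), and it was the 1 subunit of 10 called there, where 2.8% of the tested genes were called. edgeR with the same offsets gave -0.37 with an adjusted p of 0.116 and called 0 of the 10, against 0.281% of all genes. The DESeq2 call was lost without control replicate 1 (adjusted p = 0.0957) and without control replicate 3 (adjusted p = 0.0875), and was kept without each of the other libraries.

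SMARCA4, the other ATPase, had CPM of 214, 217 and 222 in the control libraries and of 194, 197 and 217 in the FOXL2 siRNA libraries. The third FOXL2 siRNA library lay among the controls, and the groups overlapped. The log2 fold change was -0.10 (SE 0.0628, 95% interval -0.25 to 0.04, edgeR adjusted p = 0.505). Its effective lengths overlapped too, with means of 3959 and 4056 nt.

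SMARCB1 and the SMARCC proteins form the core on which the ATPase sits. SMARCB1 had CPM of 65.1, 66.7 and 66.4 in the control and 66.7, 60.4 and 68.7 in the FOXL2 siRNA libraries, with a log2 fold change of -0.02 (95% interval -0.17 to 0.14, edgeR adjusted p = 0.942). The FOXL2 siRNA libraries reached below and above the controls. SMARCC1, one of the paired scaffold proteins, was at 115, 112 and 113 CPM in the control and at 112, 120 and 119 CPM after the KD, with a log2 fold change of 0.04 (95% interval -0.09 to 0.17, edgeR adjusted p = 0.820). SMARCC2, its paralog, was at 134, 137 and 138 CPM in the control and at 128, 120 and 135 CPM after the KD, with a log2 fold change of -0.09 (95% interval -0.24 to 0.05, edgeR adjusted p = 0.547). Both scaffold genes overlapped between the conditions. FOXL2 siRNA replicate 2, the library apart on the first principal component, was the highest of the 3 for SMARCC1 and the lowest for SMARCC2 and SMARCB1.

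SMARCD1 links the core to transcription factors, among them nuclear receptors. Its counts and its length moved apart. In CPM the control libraries had 74.97, 74.3 and 76.7 and the FOXL2 siRNA libraries 86.7, 69.5 and 84.1, so that replicate 2 lay below the controls and replicates 1 and 3 above them. The log2 fold change was 0.09 (SE 0.0863, 95% interval -0.11 to 0.28, edgeR adjusted p = 0.683). In TPM the control libraries had 44.8, 45.8 and 45.9 and the FOXL2 siRNA libraries 56.5, 53.0 and 52.9, to 119% of the control mean, with no overlap. The effective length was 2486, 2417 and 2426 nt in the control and 2249, 2069 and 2354 nt after the KD, also without overlap. It was shortest in the replicate with the lowest count, and 18.2% of the tested genes had a larger relative change. Taking these lengths into the model gave SMARCD1 0.24 on the log2 scale by DESeq2 (adjusted p = 0.0825) and 0.25 by edgeR (adjusted p = 0.190). DESeq2 called it only when FOXL2 siRNA replicate 2 was left out (0.28, adjusted p = 0.0252), a fit that called 5.07% of all its tested genes.

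**Figure D2:**
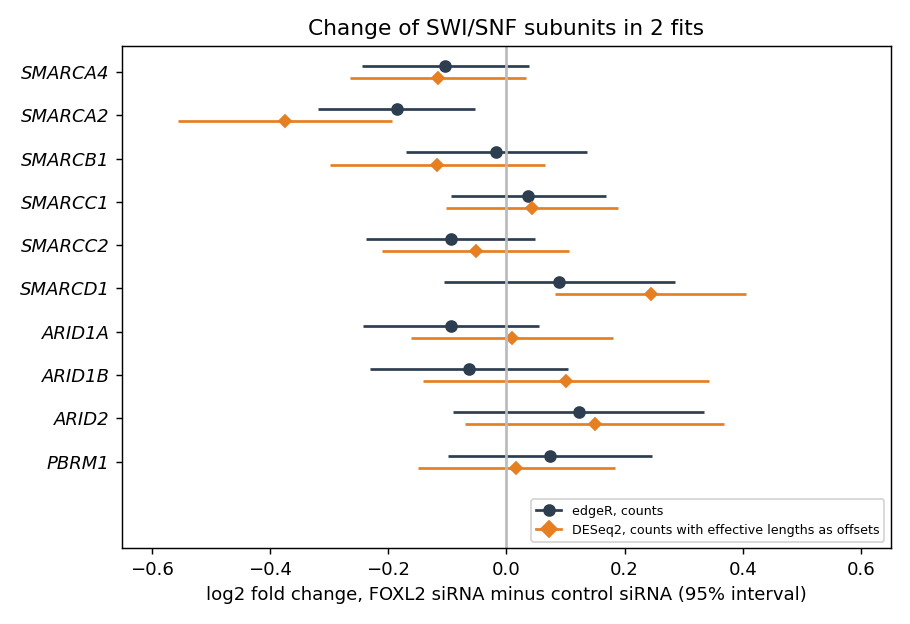
log2 fold change (FOXL2 siRNA minus control siRNA) of the 10 subunits with its 95% interval, from edgeR on the counts (circles) and from DESeq2 with RSEM effective lengths as offsets (diamonds). SMARCA2 moves from -0.19 to -0.37 and SMARCD1 from 0.09 to 0.24 once length is taken into account.

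The ARID subunits define the type of complex. ARID1A, the canonical BAF subunit that is often mutated in ovarian clear cell carcinoma, had CPM of 100.6, 104 and 105 in the control and 99.1, 89.8 and 101.2 in the FOXL2 siRNA libraries. The lowest value was that of replicate 2 and the groups overlapped, with a log2 fold change of -0.09 (SE 0.0657, 95% interval -0.24 to 0.06, edgeR adjusted p = 0.568). Its sign turned to 0.01 in DESeq2 with the effective lengths. ARID1B, its paralog, had CPM of 64.6, 63.0 and 64.7 in the control and 55.7, 65.7 and 62.6 after the KD, with a log2 fold change of -0.06 (95% interval -0.23 to 0.10, edgeR adjusted p = 0.744). It turned to 0.10 with the lengths in DESeq2. The effective length of ARID1B in FOXL2 siRNA replicate 3 was 3235 nt, against 4046 to 4425 nt in the other libraries, and in that library its TPM was the highest of the 6, at 28.7.

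ARID2 and PBRM1 belong to PBAF. ARID2 had CPM of 27.3, 27.2 and 25.2 in the control and 27.2, 32.7 and 27.0 after the KD, and its log2 fold change was 0.12 (SE 0.0936, 95% interval -0.09 to 0.33, edgeR adjusted p = 0.603). PBRM1, a subunit with bromodomains, had CPM of 99.9, 100.03 and 94.0 in the control and 97.2, 114 and 98.1 after the KD. The log2 fold change of PBRM1 was 0.07 (SE 0.0765, 95% interval -0.10 to 0.25, edgeR adjusted p = 0.708). For both genes replicate 2 alone stood above the controls. Without it the log2 fold change was 0.02 for ARID2 and -0.01 for PBRM1. The effective length of PBRM1 was 3832, 3864 and 3911 nt in the control and 3920, 4297 and 4040 nt after the KD, which did not overlap although the nearest libraries differed by less than the spread within either condition.

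The effective lengths of 3 of the 10 subunits did not overlap between the conditions, namely SMARCA2 and PBRM1, which were longer, and SMARCD1, which was shorter. Over all tested genes the share was 9.97%, with 7.54% longer and 2.43% shorter after the KD. Leaving a library out can only keep or raise such a count. Without FOXL2 siRNA replicate 2 it was 5 of 10 subunits, with 18.3% of all genes. The median absolute log2 ratio of the mean lengths was 0.08 for the subunits and 0.04 for all tested genes. Which transcripts of a gene changed cannot be read from gene tables, so the use of the SMARCA2 starts was not tested.

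SMARCA2 and SMARCA4, and likewise ARID1A and ARID1B, are alternatives in a complex, whereas SMARCC1 and SMARCC2 are paralogs that dimerise in it. The ratio of such paralogs was taken within each library, for 3 pairs. The log2 ratio of SMARCA4 to SMARCA2 in TPM was 0.51, 0.67 and 0.48 in the control libraries, against 0.81, 0.85 and 0.79 in the FOXL2 siRNA libraries. All libraries of the KD were above all controls, and the means were 0.55 ± 0.10 and 0.81 ± 0.03 (SD, n = 3 each), a difference of 0.26 with an exact permutation p of 0.1, the smallest the design allows. SMARCA4 made up 59.5% ± 1.64 of the summed TPM of both ATPases in the control and 63.7% ± 0.487 after the KD. In CPM the same ratio was 1.35, 1.42 and 1.41 in the control and 1.44, 1.45 and 1.53 after the KD, a difference of 0.08 with no overlap, so that most of the TPM difference lay in the estimated lengths.

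In TPM the other ratios overlapped between the conditions. SMARCC1 to SMARCC2 in TPM was -0.987, -0.959 and -0.997 in the control libraries and -0.959, -0.686 and -1.002 after the KD (difference 0.10, exact permutation p = 0.6). FOXL2 siRNA replicate 2 was farthest from the controls, and without it the difference was 0.0004. In CPM it was 0.13 with no overlap (exact permutation p = 0.1). ARID1A to ARID1B in TPM was 0.16, 0.21 and 0.16 in the control and 0.38, 0.01 and -0.09 after the KD (difference -0.08, exact permutation p = 0.7). With 3 libraries against 3 none of these p-values can pass a threshold of 0.05, and after Benjamini-Hochberg adjustment over the 3 pairs they were 0.3, 0.7 and 0.7.

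**Figure D3:**
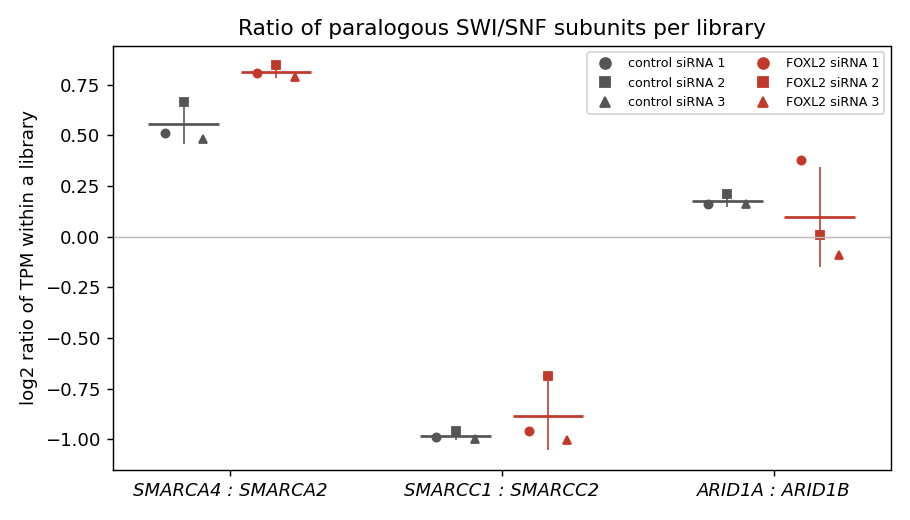
log2 ratio of TPM within each library for the 3 pairs of paralogous subunits, with means and ± 1 SD (n = 3 per condition). The SMARCA4 to SMARCA2 ratios of the FOXL2 siRNA libraries (0.79 to 0.85) lie above those of the control libraries (0.48 to 0.67), while the other pairs overlap.

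Of 21 further SWI/SNF subunits 18 were tested, and edgeR called 0 of them, beside 0.255% of all genes. SMARCE1 alone was below an unadjusted p of 0.05 in edgeR, against 13.5% of all genes. DESeq2 also called 0, with 3.0% of its tested genes called. Of the 18 log2 fold changes 15 were negative, with a median of -0.08, beside 0.01 over all genes. SMARCE1, the HMG-box subunit of BAF and PBAF, had CPM of 106, 99.6 and 103 in the control and 58.6, 95.7 and 79.5 in the FOXL2 siRNA libraries. All 3 were below the controls but far apart from each other, with a log2 fold change of -0.40 (SE 0.146, 95% interval -0.73 to -0.07, edgeR adjusted p = 0.295). DESeq2 with the effective lengths called it (-0.45, adjusted p = 0.0291), in a fit that called 2.8% of its tested genes. That call was lost without each of the 3 control libraries in turn (adjusted p = 0.182 to 0.328) and without FOXL2 siRNA replicate 3 (adjusted p = 0.0749). In edgeR the value depended on single libraries, at -0.23 without FOXL2 siRNA replicate 1 (adjusted p = 0.359) and -0.58 without replicate 2 (adjusted p = 0.0236), where 3.61% of all genes were called.

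BICRAL, a subunit of the non-canonical complex, was the next lowest, with CPM of 23.4, 23.9 and 23.5 in the control and 17.6, 22.1 and 21.2 after the KD (log2 fold change -0.22, edgeR adjusted p = 0.370). The highest were SS18 at 0.05, the subunit fused in synovial sarcoma, and BCL7C at 0.00, both with adjusted p above 0.8. In CPM, 4 of the 18 were lower without overlap and 0 higher, against 10.6% and 9.97% of all genes. The neuronal subunit ACTL6B and BCL11B were listed at 0 in every library, and BCL11A was under the filter on low counts at 0.10 to 0.25 CPM.

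**Figure D4:**
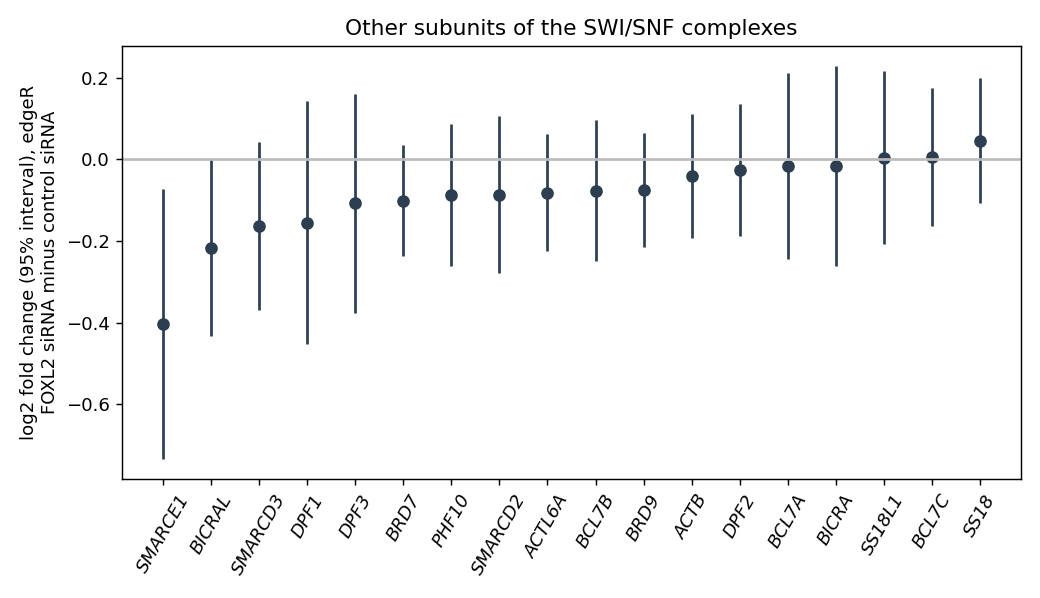
edgeR log2 fold change (FOXL2 siRNA minus control siRNA) of the 18 further SWI/SNF subunits tested, each with its 95% interval, in order of their value. SMARCE1 is the lowest at -0.40, and the highest, SS18, is at 0.05.

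Other chromatin genes give the frame. A list of 33 held remodelling ATPases and partners outside SWI/SNF (the ISWI, CHD, INO80 and NuRD families, with SMARCAD1 and HELLS). Of these, edgeR called 0, beside 0.255% of all genes, and 7 had an unadjusted p below 0.05, beside 13.5% of all genes. The log2 fold changes had a median of -0.03, with 21 negative and 12 positive. The lowest in edgeR was HDAC1, the NuRD deacetylase, with CPM of 139, 142 and 138 in the control and 130, 68.2 and 83.2 after the KD (-0.57, edgeR adjusted p = 0.267). Its replicate 1 lay near the controls, and without it edgeR gave -0.88 (adjusted p = 0.00538) and called 0.658% of all genes. With any other library left out edgeR did not call HDAC1, which was at -0.49 without FOXL2 siRNA replicate 3 and above -0.404 without replicate 2. With the effective lengths CHD7, a CHD family ATPase, was lower than HDAC1 (-0.63 in edgeR, adjusted p = 0.729). CHD7 averaged fewer than 50 counts per library, so its value is less certain. The highest was BAZ2A, the partner of the ISWI ATPase in NoRC, with CPM of 99.8, 104 and 109 in the control and 143, 115 and 130 after the KD (0.32, edgeR adjusted p = 0.175). DESeq2 called BAZ2A (adjusted p = 0.0419), the 1 of the 33 called in a fit that called 3.0% of its tested genes. With the effective lengths DESeq2 did not call it (adjusted p = 0.0717).

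Polycomb proteins oppose SWI/SNF at many developmental genes. Of 28 Polycomb genes edgeR called 0 (0.255% of all genes), with 5 at an unadjusted p below 0.05 (13.5% of all genes) and a median log2 fold change of 0.04. The lowest was CBX2 at -0.47 (edgeR adjusted p = 0.294), with 3.15 to 3.54 CPM after the KD and 3.77 to 5.58 CPM in the control. The highest was CBX6, a chromodomain protein of PRC1, with CPM of 106, 102 and 103 in the control and 146, 124 and 143 after the KD. The 3 FOXL2 siRNA libraries were all above the controls, and the log2 fold change was 0.41 (SE 0.0732, 95% interval 0.25 to 0.58, edgeR adjusted p = 0.0673). DESeq2 called it (adjusted p = 0.000449), as did both fits with effective lengths (adjusted p = 0.0413 in edgeR and 3.72e-05 in DESeq2). It was the 1 of the 28 called in each, and these fits called 3.0%, 0.281% and 2.8% of their tested genes.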

How the data were processed

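KGN cells with FOXL2 siRNA or control siRNA (3 libraries each) were profiled by single-read RNA-seq from stranded mRNA libraries. Per the labels and the study's methods, the authors aligned reads with STAR 2.7.6a, used Picard 2.8.1 and estimated each gene with RSEM 1.3.1. Their deposited tables give an expected count, TPM and an effective length (the transcript length less an allowance for fragment size, weighted by abundance) per gene. The FPKM columns were not used. The build listed in the processing notes is GRCm38, a mouse build, whereas the tables hold human Ensembl identifiers. The annotation release is not given in the sources used here, and coordinates come from GENCODE v29 and RefSeq (GRCh38). Of the expected counts above 0, 66.8 to 69.1% were whole in a library (no fractional part as deposited), and 5 of the 10 members had whole counts in every library. RSEM shares reads between near-identical sequences, so members with fractional counts are less certain.

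Expected counts were rounded and tested with edgeR 4.0.16 (R 4.3.3; TMM, filterByExpr, glmQLFit with the newer quasi-dispersion estimate, Benjamini-Hochberg over all 15663 genes tested, threshold 0.05). DESeq2 1.42.0, limma 3.58.1 (pseudocounts 1 and 0.1, on genes averaging 1 TPM or more), the effective lengths as offsets, a block on the replicate number and the omission of each library were alternatives. Intervals for edgeR come from its standard error, and single values were compared with an exact two-sided permutation test. Scripts were tested on simulated data.

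The members and lists were chosen with earlier results of these data known, and the newer dispersion estimate, the intensity trend in limma and DESeq2 without a prior filter were settled after their counts of calls had been seen. The named genes were all members, FOXL2, further subunits called by edgeR, DESeq2 or a fit with lengths, with the 2 lowest and 2 highest and those under the filter, and the calls and extremes of the other lists. BAZ2A and CBX6 are named as extremes. Marker sums of endothelial (0.41 to 0.97 TPM), leukocyte (0.58 to 1.11 TPM), oocyte (0.07 to 0.46 TPM) and theca genes (0 to 0.05 TPM) were low.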

Additional observations from a re-analysis of the deposited data

How the results depend on the processing

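SMARCA2 was lower in all 27 alternatives, from -0.44 to -0.17 on the log2 scale, and passed the threshold in 6, all of them DESeq2 with effective lengths. SMARCA4, SMARCC1, SMARCD1 and ARID2 also kept their sign in every alternative, none of them called except SMARCD1 once. Signs of uncalled members turned as follows, for causes that were not tested. ARID1A was 0.014 in limma on log2(TPM + 1) with and without an intensity trend, 0.015 with a pseudocount of 0.1, 0.015 in edgeR and 0.0098 in DESeq2 with lengths, 0.014 there on filtered genes, and -0.131 to 0.073 with single libraries left out of edgeR or of DESeq2 with lengths. ARID1B was 0.092, 0.095, 0.105, 0.101 and 0.105 in the same fits, and -0.12 to 0.215 with libraries left out. PBRM1 was -0.039 to 0.115 with libraries left out. SMARCB1 was -0.182 to 0.030 and SMARCC2 -0.142 to 0.0063 with libraries left out, both highest without FOXL2 siRNA replicate 2. The ARID1A to ARID1B difference was -0.22 to 0.014, the latter without FOXL2 siRNA replicate 3.

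The median of the members turned to 0.019 (limma, all 3 forms), 0.018 (edgeR with lengths), 0.013 (DESeq2 with lengths) and 0.017 (the same, filtered), and ran from -0.070 to 0.017 with libraries left out. Members called were 1 in DESeq2 with lengths (SMARCA2), filtered or not, where 2.8% and 2.98% (filtered) of all genes were called, and 0 to 2 with libraries left out (2, with SMARCD1, without FOXL2 siRNA replicate 2, where 5.07% were called). Of the further subunits 1 was called in both, and 0 to 1 with libraries left out. Of the other remodellers 1 was called by DESeq2, filtered or not (BAZ2A), where 3.0% and 2.52% (filtered) of all genes were called. With libraries left out it was 0 to 1 (HDAC1 without FOXL2 siRNA replicate 1, BAZ2A without replicate 2). Of the Polycomb genes 1 was called by DESeq2, by the same filtered and by each fit with lengths, and 0 to 1 with libraries left out. FOXL2 was -1.36 and no longer called in limma without an intensity trend (adjusted p = 0.0513). Non-overlapping lengths numbered 5 without FOXL2 siRNA replicate 2, and 3 to 5 with each library left out in turn, beside 17.7% to 34.5% of all genes (9.97% with all libraries). An omission can only keep or raise this number.

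Over all genes, calls numbered 40 in edgeR (41 with the older quasi-dispersion estimate), 5 at an adjusted p below 0.01, 350 in DESeq2 (333 filtered), 344 with lengths in DESeq2 (358 filtered), 13 in limma with either pseudocount (2 without a trend), 70 without a filter and 64 at a mean of at least 50 counts. They ran from 2 (without control replicate 1 or 3) to 579 (without FOXL2 siRNA replicate 2) in edgeR and from 125 to 600 with lengths in DESeq2. The replicate block gave 11 calls and 0 members. The deviations of same-numbered libraries correlated at -0.03, 0.05 and 0.05, and not every library correlated best with its own number, so the numbers were not taken to pair the samples. Within replicate numbers the SMARCA4 to SMARCA2 ratio differed by 0.26 (exact sign-flip p = 0.25, the smallest for 3 pairs). The number of libraries (3 per condition) limits all of these values. Lengths with libraries left out, DESeq2 on filtered genes, limma without a trend and the older estimate were added after seeing the data.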
